A study of Mus musculus with 6 samples.

Results

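The genes described are the 7 cyclin-dependent kinase (CDK) inhibitor genes of the mouse, Cdkn1a, Cdkn1b, Cdkn1c, Cdkn2a, Cdkn2b, Cdkn2c and Cdkn2d. They were taken as every probe that the array files name after one of them, control spots aside, which gave 10 probes of the 41174 on the array. All 7 genes passed the background filter, out of 26498 genes tested. Kidneys (metanephroi) of CD1 mouse embryos at E13.5 were cultured on filters and exposed for 6 h to Scriptaid or to Nullscript, both at a dose of 2.0 µg/ml. Scriptaid, a hydroxamic acid, blocks histone deacetylases (HDACs), and Nullscript is a structural relative used as its inactive control. Paired kidneys were given the different drugs, and the sources used here do not give the number of embryos or litters behind a replicate. RNA of both treatments was hybridised together to Agilent arrays, with 3 biological replicates measured on 2 arrays each, 1 in each dye orientation (Scriptaid in Cy3 or in Cy5). Each explant holds every cell type of the early kidney, so fewer cells of a type and less RNA per cell cannot be told apart.

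CDK inhibitors hold the cell cycle back. Those of the Cip/Kip family (Cdkn1a, Cdkn1b and Cdkn1c, which encode p21, p27 and p57) bind complexes of several cyclins with their kinases. Those of the INK4 family (Cdkn2a to Cdkn2d, which encode p16, p15, p18 and the INK4 protein p19) bind the kinases Cdk4 and Cdk6 and keep the D cyclins off them. In many cultured cells Cdkn1a is known as a gene that HDAC inhibitors raise, through a promoter with GC boxes to which factors of the Sp1 family bind. In the kidney, Cdkn1c is known from podocytes, the filtering cells of the glomerulus, and it is an imprinted gene expressed from the maternal copy.

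Which drug raised a gene is not settled in these arrays, so each value is given by the drug that the labels assign to a channel, called the Scriptaid channel and the Nullscript channel from here on. The dye fields state which drug was in which dye, and the deposited ratios follow them. By these fields, all 4 listed genes that HDAC inhibitors are known to raise in other cells had the higher signal in the Nullscript channel. Among them the linker histone genes H1f0 and H1f2 had log2 ratios (labelled Scriptaid over labelled Nullscript, mean ± SD of 3 replicates) of -1.001 ± 0.155 and -1.72 ± 0.06. Gsn, which encodes the actin-severing protein gelsolin, had -1.04 ± 0.14 and Txnip, the thioredoxin-interacting protein gene, -1.01 ± 0.08. All 4 listed genes known to fall were higher in the Scriptaid channel, among them Ccnd1 at 1.90 ± 0.19 and Myc at 1.71 ± 0.28. Of all genes tested, 23.7% were higher in the Nullscript channel and 22.5% in the Scriptaid channel at a limma adjusted p under 0.05. Both lists were chosen with earlier results of these data known. If the drug names were exchanged on the arrays, every sign given here would turn.

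The promoters of the 3 inhibitor genes with the largest ratios are shown first, because these genes lay on the same side while their upstream sequences differ in GC boxes. The sequences are the 250 bases before a RefSeq start on GRCm38.p6, 5′ to 3′ on the strand of the gene. The GC box was searched as GGGCGG on both strands (CCGCCC where it lies on the other strand), and matches are in capitals.
Cdkn1a, chr17:29093519-29093768, plus strand: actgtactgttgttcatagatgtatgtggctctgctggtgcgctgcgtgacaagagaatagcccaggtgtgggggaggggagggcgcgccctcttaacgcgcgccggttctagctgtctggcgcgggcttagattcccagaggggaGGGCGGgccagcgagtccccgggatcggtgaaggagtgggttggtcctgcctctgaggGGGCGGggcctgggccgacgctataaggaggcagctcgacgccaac
Cdkn2b, chr4:89311033-89311282, minus strand: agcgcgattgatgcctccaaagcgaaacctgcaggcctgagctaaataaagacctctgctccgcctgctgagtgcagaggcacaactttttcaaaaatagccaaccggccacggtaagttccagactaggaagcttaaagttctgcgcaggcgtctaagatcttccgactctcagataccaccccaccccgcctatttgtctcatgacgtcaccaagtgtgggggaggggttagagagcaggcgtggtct
Cdkn2d, chr9:21291210-21291459, minus strand: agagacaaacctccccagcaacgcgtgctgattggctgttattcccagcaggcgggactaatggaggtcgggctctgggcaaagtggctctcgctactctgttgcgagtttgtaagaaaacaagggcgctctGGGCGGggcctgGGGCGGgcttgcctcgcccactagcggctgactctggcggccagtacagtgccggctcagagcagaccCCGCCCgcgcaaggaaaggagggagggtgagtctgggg
The Cdkn1a start shown, the downstream of 2 in the table, has 2 matches, which begin 104 and 46 bases before the start, while the upstream start has 0. Cdkn2d has 3, of which 1 lies on the other strand, and they begin between 118 and 38 bases before the start. The Cdkn2b sequence has 0 matches, which says only that these letters are not in this window. Of all 32851 promoters in the table, 32.7% hold at least 1 match in their 250 bases. Of the other members, Cdkn1b has 1 match, Cdkn2a has 2 at its upstream start and 0 at its downstream start, and Cdkn2c has 3 and 0. Cdkn1c is not among the 6 members with a promoter sequence used here. A match is a description of the letters, not a measured site.

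Of the 7 inhibitor genes, 6 lay higher in the Nullscript channel and 0 in the Scriptaid channel at a limma adjusted p under 0.05. Among all genes tested, 6289 (23.7%) lay higher in the Nullscript channel and 5960 (22.5%) in the Scriptaid channel, together 46.2%. The median log2 ratio of the 6 members other than Cdkn1c, whose signal was saturated, was -0.44, against -0.01 for all genes. The 6 calls were of unequal weight. Cdkn2b, Cdkn1a and Cdkn2d had large ratios on every array, Cdkn2c and Cdkn2a differed by about 1.10-fold, and the call of Cdkn1c rests on a channel at the limit of the scanner. Cdkn1b was not called, and its 3 probes and its arrays disagreed.

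**Figure D1:**
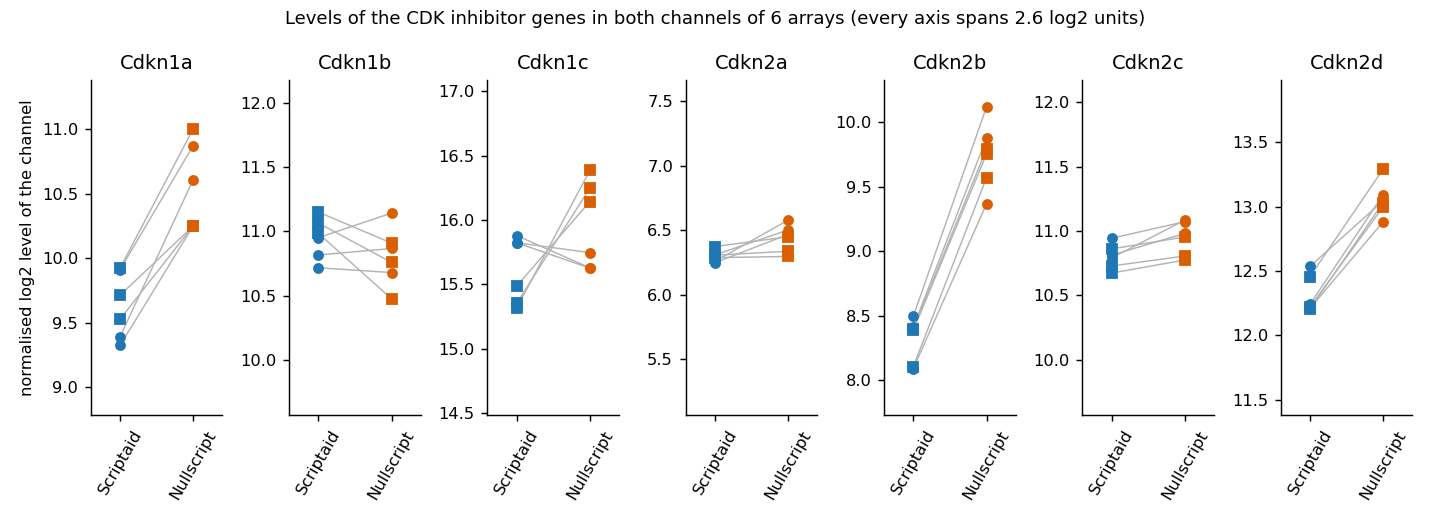
Normalised log2 level of each CDK inhibitor gene in the Scriptaid channel (blue) and the Nullscript channel (orange) of 6 arrays, joined by a line for each array. Circles are arrays with Scriptaid in Cy3 and squares arrays with Scriptaid in Cy5, and every axis spans 2.6 log2 units. The groups do not overlap for Cdkn1a, Cdkn2b and Cdkn2d, and the lines of Cdkn1b and Cdkn1c slope both ways.

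Cdkn2b, the INK4 gene known as a target of TGF-beta signalling, had the largest difference of the 7. Its normalised log2 level lay between 8.09 and 8.49 (median 8.39) in the 6 Scriptaid channels. In the 6 Nullscript channels it lay between 9.37 and 10.12 (median 9.77). The groups did not overlap, and the ratio of every array lay between -1.62 and -1.28. The replicates gave log2 ratios of -1.43, -1.37 and -1.50, a mean of -1.43 ± 0.06 (SD, n = 3), which is 2.70-fold higher in the Nullscript channel (limma adjusted p = 0.000116). Only 0.43% of the genes tested had a lower ratio, and by absolute ratio Cdkn2b ranked at place 216. Its ratio hardly depended on the dyes, with means of -1.46 with Scriptaid in Cy3 and -1.41 with Scriptaid in Cy5 (gap 0.05, adjusted p = 0.787 for the dye term).

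Cdkn1a, whose product p21 is the inhibitor that p53 induces after DNA damage, was the second. Its log2 level lay between 9.32 and 9.92 (median 9.62) in the Scriptaid channels and between 10.25 and 11.003 (median 10.43) in those labelled Nullscript. The groups did not overlap. The replicate ratios were -0.73, -1.02 and -0.97, with a mean of -0.91 ± 0.16 (SD, n = 3), or 1.88-fold higher in the Nullscript channel (limma adjusted p = 0.000429). The probe of Cdkn1a was spotted 10 times on each array, so the error within an array can be set against that between arrays. All 60 spots had a negative ratio. The SD among the 10 spots of an array lay between 0.03 and 0.06, while the 6 arrays ranged from -1.22 to -0.54. Replicates 1 and 3 had smaller ratios with Scriptaid in Cy5 (-0.54 and -0.73) than with Scriptaid in Cy3 (-0.93 and -1.22). Replicate 2 had similar ones, at -1.08 and -0.96. The gap between the orientations of Cdkn1a was 0.26 and was not called (limma adjusted p = 0.298).

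Cdkn2d, the INK4 gene of p19, was the third. Its log2 level lay between 12.20 and 12.54 (median 12.23) in the Scriptaid channels and between 12.88 and 13.29 (median 13.04) in those labelled Nullscript, again with no overlap. The replicates gave -0.73, -0.67 and -0.84, a mean of -0.75 ± 0.09 (SD, n = 3) or 1.68-fold higher in the Nullscript channel (limma adjusted p = 0.000255). Array by array the ratio ran from -0.85 to -0.51.

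**Figure D2:**
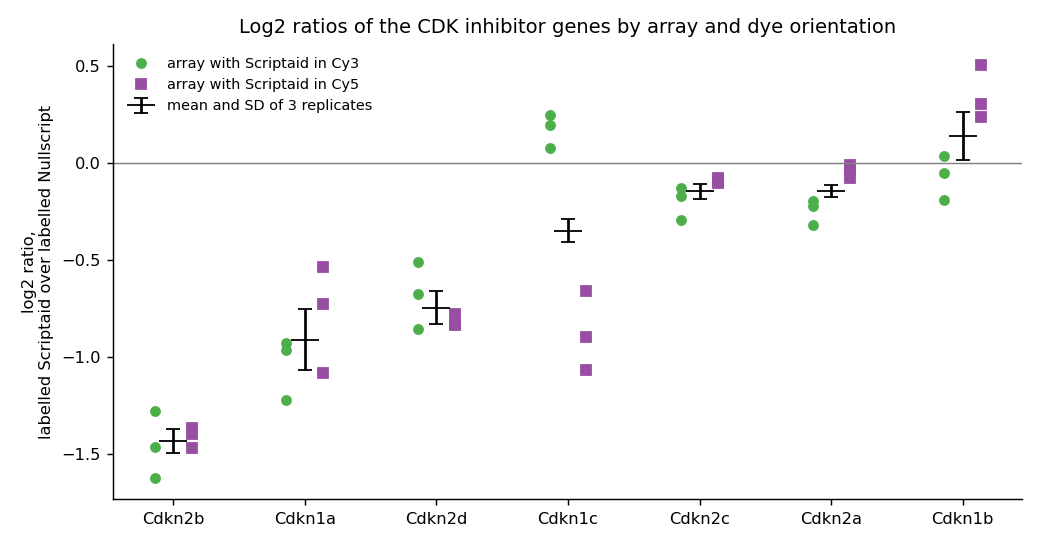
Log2 ratio of each CDK inhibitor gene on 6 arrays, labelled Scriptaid over labelled Nullscript, ordered by the mean. Green circles are arrays with Scriptaid in Cy3, purple squares arrays with Scriptaid in Cy5, and black lines the mean and SD of 3 replicates. Cdkn1c lies above 0 on 3 arrays and below 0 on the other 3, split by dye. Cdkn1b leans to the other dye in each replicate, but lies below 0 on only 2 arrays, both with Scriptaid in Cy3.

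Cdkn2c, which encodes p18, differed little. Its log2 level lay between 10.67 and 10.94 (median 10.80) in the Scriptaid channels and between 10.78 and 11.09 (median 10.97) in those labelled Nullscript, and these ranges overlapped. Within each of the 6 arrays the Nullscript channel was the higher, by 0.08 to 0.29. The mean ratio was -0.14 ± 0.04 (SD, n = 3; limma adjusted p = 0.0154). A second probe of Cdkn2c gave -0.12 ± 0.04, negative on all 6 arrays as well, with a limma p of 0.0289 adjusted over 39405 probes. Without replicate 3 the adjusted p of Cdkn2c was 0.121 at a ratio of -0.12, and on the arrays with Scriptaid in Cy5 alone it was 0.140 at -0.09.

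Cdkn2a encodes p16 and, from a start further upstream, the tumour suppressor p19Arf. It was measured close to background. Its probe was well above background on 3 of 6 arrays in the Scriptaid channel and on 4 in the Nullscript channel, and which of its transcripts the probe detects cannot be told from the files. The log2 level lay between 6.25 and 6.37 (median 6.30) in the Scriptaid channels and between 6.30 and 6.58 (median 6.46) in those labelled Nullscript. The ranges overlapped at their edges. The mean ratio was -0.14 ± 0.03 (SD, n = 3; limma adjusted p = 0.0141). Of the 60 spots of Cdkn2a, 29 were well above background in the Scriptaid channel and 40 in the Nullscript channel, and 52 had a negative ratio. The dye moved with both: in Cy3 9 of 30 spots labelled Scriptaid and 14 of 30 labelled Nullscript passed, and in Cy5 20 and 26 of 30. The mean ratio was -0.24 with Scriptaid in Cy3 and -0.04 with Scriptaid in Cy5 (adjusted p = 0.525 on the latter arrays alone). The size of the ratio changed with the processing. It was -0.25 with an offset of 16, -0.39 with median centring in place of loess and -0.69 on the processed signals of the scanner software. Without replicate 3 Cdkn2a was no longer called, at -0.12 with an adjusted p of 0.116.

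**Figure D3:**
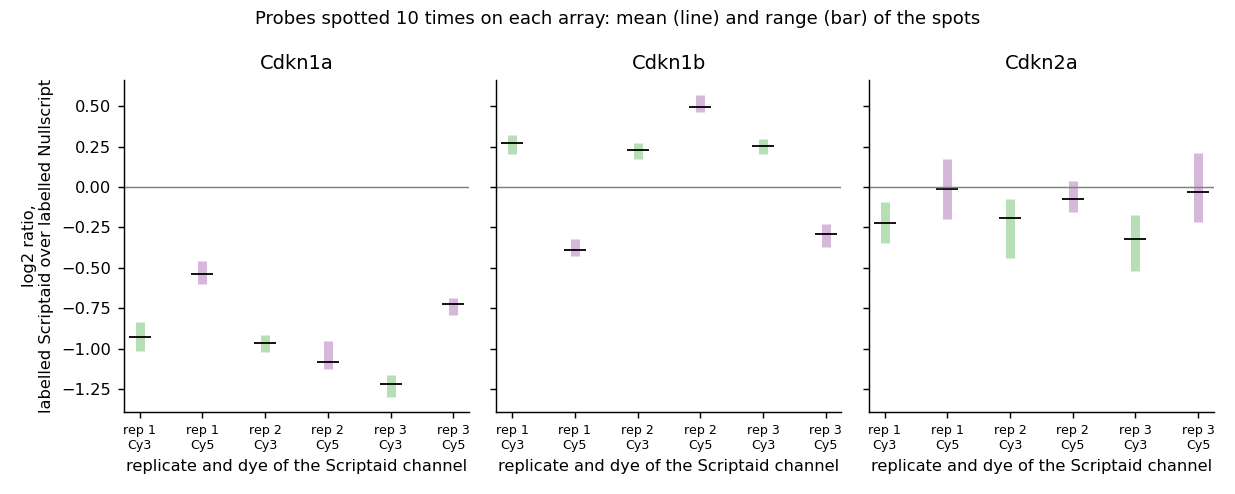
Log2 ratios of the 3 CDK inhibitor probes that were spotted 10 times on each array, by replicate and by the dye of the Scriptaid channel. Black lines are the mean and bars the range of the 10 spots (green with Scriptaid in Cy3, purple with Scriptaid in Cy5). All spots of Cdkn1a lie below 0, each array of Cdkn1b lies wholly on 1 side of 0, and the bars of Cdkn2a with Scriptaid in Cy5 cross 0.

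Cdkn1b, whose product p27 is held low in cycling cells by protein breakdown, had no call. Its brightest probe had log2 levels between 10.72 and 11.15 (median 10.97) in the Scriptaid channels and between 10.48 and 11.14 (median 10.81) in those labelled Nullscript, which overlapped over most of their range. The mean ratio was 0.14 ± 0.12 (SD, n = 3; limma adjusted p = 0.0910). By orientation it was -0.07 with Scriptaid in Cy3 and 0.35 with Scriptaid in Cy5, a gap of 0.42 (adjusted p = 0.0296). The probe spotted 10 times gave 0.10 ± 0.23 (limma p of 0.460 adjusted over probes), and the third probe 0.05 ± 0.06 (0.305). The 10-spot probe was precise within each array, with an SD among spots of 0.03 to 0.04, yet its array means ran from -0.39 to 0.49. It was 0.27, 0.23 and 0.25 on the 3 arrays with Scriptaid in Cy3. With Scriptaid in Cy5 it was -0.39, 0.49 and -0.29 in replicates 1, 2 and 3. The brightest probe and the 10-spot probe thus leaned to opposite dyes in replicates 1 and 3. Cdkn1b passed the threshold, as higher in the Scriptaid channel, without replicate 1 (0.20, adjusted p = 0.0341), on the arrays with Scriptaid in Cy5 alone (0.35, adjusted p = 0.00421), with the replicate block (0.14, adjusted p = 0.0331), with the slide as a block (0.17, adjusted p = 0.0485) and with median centring (0.22, adjusted p = 0.0271).

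Cdkn1c was at the upper end of the scanner. In Cy5 its spot was saturated on all 6 arrays, with mean signals between 65207 and 65209, whichever drug the channel held. In Cy3 it was saturated on 0 arrays. The 2-channel ratio followed the dye, and the part of saturation in this was not tested. It was 0.25, 0.08 and 0.20 in replicates 1, 2 and 3 with Scriptaid in Cy3, and -1.07, -0.66 and -0.89 with Scriptaid in Cy5. The gap between orientations was -1.05 (adjusted p = 0.00115 for the dye term). The mean over both was -0.35 ± 0.06 (SD, n = 3; limma adjusted p = 0.00118), but either orientation holds a saturated signal, so it is no measure of the size, and with saturated spots left out no ratio remains.

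The Cy3 signals of Cdkn1c can be compared between arrays. The mean Cy3 signal was 56830, 53277 and 54788 on the arrays of replicates 1, 2 and 3 with Scriptaid in Cy3. On the arrays with Nullscript in Cy3 it was 46562, 53425 and 33269. These arrays also differed in their overall brightness, with a median background-corrected Cy3 signal of 394, 371 and 428 on the former and 339, 364 and 288 on the latter. After quantile normalisation of the Cy3 channels the log2 level was 15.45 to 15.57 with Scriptaid and 15.61 to 15.71 with Nullscript, which did not overlap. The replicate differences (Scriptaid minus Nullscript) were -0.20, -0.07 and -0.16, with a mean of -0.14 ± 0.07 (SD, n = 3). A two-sided exact permutation test of 3 against 3 gave p = 0.10, and one that exchanged the drugs within the 3 replicates gave p = 0.25. Each is the smallest p its design allows, so neither could pass a threshold of 0.05. With each array scaled to its median instead, the differences were 0.07, -0.03 and 0.15, with a mean of 0.06 ± 0.09 (SD, n = 3). The sign for Cdkn1c therefore differed between the scalings, and both means were small.

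**Figure D4:**
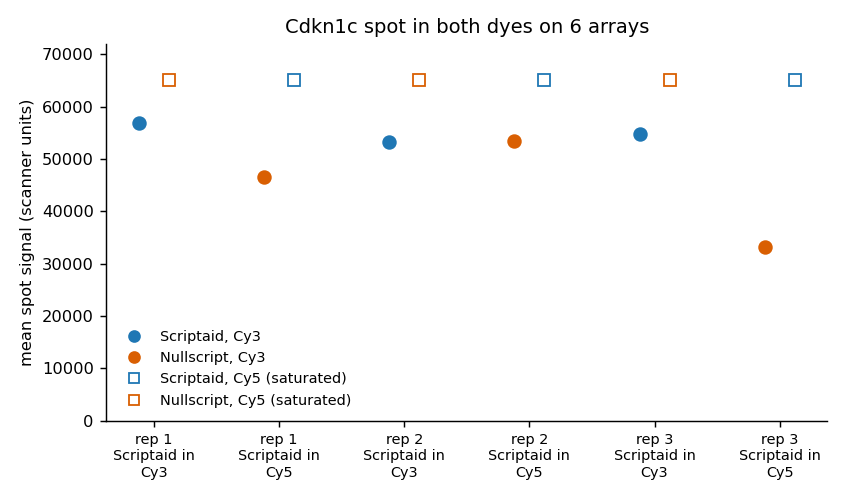
Mean scanner signal of the Cdkn1c spot on 6 arrays, by replicate and dye orientation. Filled circles are Cy3 and open squares Cy5, blue for the Scriptaid channel and orange for the Nullscript channel. All 6 Cy5 signals sit at 65207 to 65209, the saturation level, and the Cy3 signals between 33269 and 56830.

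The same Cy3-only comparison of the other 6 members gave a reading that needs no Cy5 channel. The differences were -1.40 ± 0.11 for Cdkn2b, -0.99 ± 0.13 for Cdkn1a and -0.81 ± 0.03 for Cdkn2d (SD, n = 3), each with no overlap between the drugs. Cdkn2a had -0.10 ± 0.04, also without overlap, Cdkn2c -0.04 ± 0.02 and Cdkn1b 0.07 ± 0.11. The 3 large differences were thus of similar size in 1 dye alone and in the 2-channel ratio, and that of Cdkn2c was smaller.

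The members lie on 5 chromosomes. By the reference gene table (GRCm38.p6), Cdkn2a (chr4:89274473-89294619) and Cdkn2b (chr4:89306289-89311032) are neighbours 11669 bases apart. Cdkn2c (chr4:109660876-109666756) is on the same chromosome. Cdkn1a is at chr17:29090979-29100722, Cdkn1b at chr6:134920401-134925525, Cdkn1c at chr7:143458339-143461059 and Cdkn2d at chr9:21288459-21291421. The nearest measured genes next to the members mostly had small ratios. Beside Cdkn1a, Srsf3 had -0.01 ± 0.04 and Rab44 0.00 ± 0.07, with no call (limma adjusted p = 0.785 and 0.946). Around the Cdkn2a and Cdkn2b pair, Mtap had -0.12 ± 0.18 (adjusted p = 0.253) and Dmrta1, which is 377165 bases from Cdkn2b, -0.20 ± 0.06 (adjusted p = 0.00860). Cdkn2d had Kri1, 489 bases away, at -0.13 ± 0.04 (adjusted p = 0.0206) and Ap1m2 at -0.22 ± 0.06 (adjusted p = 0.00484), both called on the same side as Cdkn2d and both smaller. Next to Cdkn2c, 9630013D21Rik had -0.08 ± 0.07 and Faf1 -0.07 ± 0.02, with no call.

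One neighbour had a large ratio. Lockd, a long noncoding RNA gene 3566 bases from the end of Cdkn1b, had replicate ratios of 1.18, 0.89 and 1.06 and a mean of 1.05 ± 0.14 (SD, n = 3; limma adjusted p = 0.000264), higher in the Scriptaid channel. Gpr19, on the other side of Cdkn1b, had -0.03 ± 0.10 (adjusted p = 0.603). Lockd thus differed while Cdkn1b itself was not called.

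Cdkn1c belongs to an imprinted domain, and the other genes of that domain were read for comparison. Of the 9 listed genes, Cdkn1c included, 1 was higher in the Scriptaid channel and 1, Cdkn1c itself, in the Nullscript channel, with a median of -0.07. The shares over all genes were 22.5% and 23.7%. The call of Cdkn1c comes from a saturated signal. Nap1l4 and Cd81, neither called, were saturated on 2 arrays each in the Scriptaid channel. The called gene besides Cdkn1c was Tssc4 at 0.44 ± 0.03 (limma adjusted p = 0.000388). The neighbours of Cdkn1c, Kcnq1 and Slc22a18, had 0.02 ± 0.07 and -0.01 ± 0.03.

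The genes whose array profiles were most like those of Cdkn2b and Cdkn1a were sought by the root mean square difference of the log2 ratio over 6 arrays, among 18707 named genes with no saturated spot. For Cdkn2b these were Agap2 (difference 0.04; ratio -1.41 ± 0.05), Ccdc92 (0.07; -1.41 ± 0.04) and Sec11c (0.08; -1.38 ± 0.10). For Cdkn1a they were Mgst3 (0.10; -0.94 ± 0.14), Tubb2b (0.10; -0.93 ± 0.17) and the histone gene H2bc4 (0.11; -0.94 ± 0.19). The 6 arrays are 3 replicates measured in 2 orientations, so these are likenesses over 3 samples.

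The kinases and cyclins that the inhibitors act on lay mostly on the other side. The shares over all genes were 22.5% in the Scriptaid channel and 23.7% in the Nullscript channel. Of 5 genes for the D cyclins and their kinases, 4 were higher in the Scriptaid channel and 0 in the Nullscript channel, with a median of 0.77. With the mean over all probes of each gene, this median was 0.45. Ccnd1, the cyclin D1 gene, had 1.90 ± 0.19 (3.72-fold; limma adjusted p = 0.000148), Cdk4 0.98 ± 0.18 (1.97-fold; adjusted p = 0.000467) and Cdk6 0.77 ± 0.27 (1.71-fold; adjusted p = 0.00336). These are the partners that the INK4 inhibitors keep apart. The further probes of Cdk6 gave 0.33 and -0.06. A list of 13 genes held the E, A and B cyclins, their kinases, the Cdc25 phosphatases, Cdk7, Ccnh and Mnat1. Of these 13, 7 were higher in the Scriptaid channel and 2 in the Nullscript channel (median 0.30). The 2 were Ccnh at -0.51 ± 0.06 and Mnat1 at -0.11 ± 0.04, and neither is an E, A or B cyclin. The 7 also held genes that are not such cyclins, among them Cdc25a at 0.47 ± 0.10 and Cdk7 at 0.38 ± 0.04. The E cyclin genes Ccne1 and Ccne2 were not called (limma adjusted p = 0.110 and 0.0951). The mitotic cyclin genes Ccnb2, Ccna2 and Ccnb1 led the 7 with 0.69 ± 0.05, 0.64 ± 0.12 and 0.59 ± 0.12.

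The retinoblastoma family and the E2F factors, which act below the kinases, went both ways, with 3 of 13 higher in the Scriptaid channel, 4 in the Nullscript channel and a median of 0.01, shares near those over all genes. Rb1, the brake that the D cyclin kinases phosphorylate, had replicate ratios of -0.85, -0.86 and -0.84, a mean of -0.85 ± 0.01 (SD, n = 3; limma adjusted p = 0.000137). Its second probe gave -0.18 (adjusted p = 0.0307 over probes). E2f3, an activating E2F, had 0.82 ± 0.03, with 0.24 and 0.42 on its further probes, and E2f1 had 0.25 ± 0.07.

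Genes of the ubiquitin ligases that remove CDK inhibitor proteins were higher in the Scriptaid channel for 10 of 11 and higher in the Nullscript channel for 1, with a median of 0.32. The shares over all genes were 22.5% and 23.7%. Without replicate 3 the count in the Scriptaid channel was 7. The 1 was Skp1 at -0.47 ± 0.02 (limma adjusted p = 0.000298). Cul1, the cullin scaffold of the ligase that targets p27, had 1.45 ± 0.21 (2.74-fold; limma adjusted p = 0.000267), and its further probes 1.19 and 1.26. The RING subunit Rbx1 had 0.81 ± 0.07 and the anaphase-promoting complex activator Cdc20 0.71 ± 0.10, with 2 and 1 arrays saturated in the Scriptaid channel. Cks1b was saturated on 1 array there as well. Without these 3 genes the summed signal of the list, Skp1 included, was 47267 to 57594 in the Scriptaid channels. It was 49228 to 58488 in those labelled Nullscript, and the ranges overlapped.

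Among 22 regulators of inhibitor transcription, 11 were higher in the Scriptaid channel and 5 in the Nullscript channel (median 0.10). Over all genes the shares were 22.5% and 23.7%, so the count in the Nullscript channel was near its share. The list holds activators and repressors together. Myc, a repressor of Cdkn1a and Cdkn2b, had 1.71 ± 0.28 (3.28-fold; limma adjusted p = 0.000331), with 1.76 and 0.30 on its further probes. Sp1 and Sp3 had 0.50 ± 0.07 and 0.54 ± 0.08, both called higher in the Scriptaid channel. The p53 gene Trp53 had -0.05 ± 0.06 and no call. The Polycomb genes Cbx7 and Bmi1, both known as repressors of the Cdkn2a locus, went opposite ways, Cbx7 at -1.50 ± 0.16 (adjusted p = 0.000164) and Bmi1 at 0.89 ± 0.26 (adjusted p = 0.00176). The class I HDAC genes, the enzymes that Scriptaid inhibits, were split, 2 of 4 in each direction (median 0.04). Hdac1 had -0.83 ± 0.07 (adjusted p = 0.000174), Hdac8 0.48 ± 0.14 (0.09 on its second probe) and Hdac2 0.37 ± 0.20 (0.06 on its second probe). The genes for the response to HDAC inhibitors in other cells, 4 on each side, had medians of -1.03 for those known to rise and 1.22 for those known to fall. The latter include the thymidylate synthase gene Tyms at 0.73 ± 0.03, though one of its 3 probes gave -0.02.

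Up to 3 called genes with the largest absolute ratio per list, cell type markers described next included, made 45 genes. Of these 45, 24 had further probes, 32 in all. Of these probes 23 were called on the same side as the brightest probe and 0 on the other, 6 had the same sign with no call and 3 the opposite sign with no call.

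**Figure D5:**
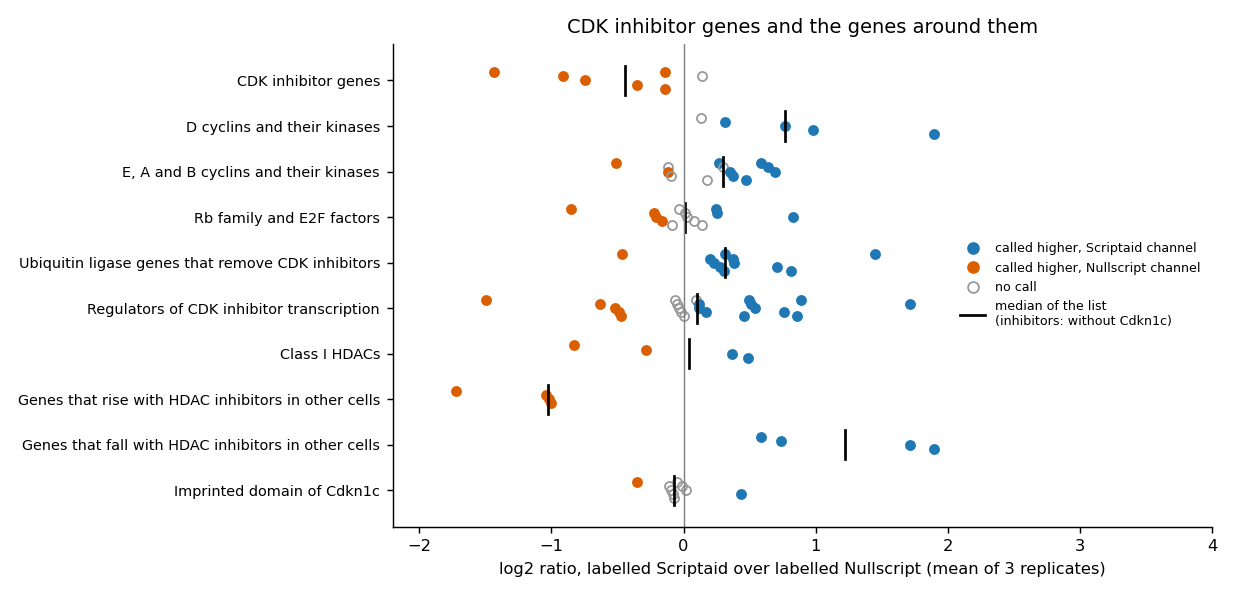
Mean log2 ratio of 3 replicates for the CDK inhibitor genes and for 9 lists of genes around them, 1 point a gene. Blue points were called higher in the Scriptaid channel, orange points higher in the Nullscript channel, open points were not called, and black lines are medians. The line for the inhibitor genes, at -0.44, leaves out Cdkn1c, whose point comes from a saturated signal. The D cyclins and their kinases have a median of 0.77.

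Cell type markers moved as well, and their part in the values of the inhibitors was not tested. All markers of the labelled tissue passed the background filter, with 6 of 6 for kidney progenitors, 6 of 6 for the ureteric bud and 4 of 4 for the stroma. Most probes of the array did so, 39407 of 41174. Pax2 and Ret were dim, with mean log2 levels of 7.44 and 7.50 in the Scriptaid channels. Of the progenitor, ureteric bud and stromal markers, 5 of 6, 3 of 6 and 3 of 4 were higher in the Scriptaid channel. In the Nullscript channel 0, 1 and 1 were higher. The shares over all genes were 22.5% and 23.7%. Eya1 had 1.64 ± 0.18 (0.48 on its second probe), Wt1 0.97 ± 0.07, Cited1 0.71 ± 0.04, Gata3 0.78 ± 0.10, Calb1 0.36 ± 0.05, Cdh1 -0.68 ± 0.06, Tcf21 1.69 ± 0.20, Pdgfra 0.86 ± 0.17 (0.12 on its second probe, not called) and Foxd1 0.56 ± 0.08. The summed signal of the progenitor markers was 28245 to 31961 in the Scriptaid channels and 13172 to 15382 in those labelled Nullscript. That of the ureteric bud markers was 30956 to 38492 and 27984 to 31662, and that of the stromal markers 79764 to 91647 and 70905 to 99654. The stromal sum includes Col1a1, which was saturated on 3 arrays in either channel, and without it was 32891 to 47179 and 19490 to 25924.

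Markers of other cells passed the background filter too. Over all genes, 22.5% were higher in the Scriptaid channel and 23.7% in the Nullscript channel. Of 4 endothelial markers 3 were higher in the Scriptaid channel and 0 in the Nullscript channel, led by Cdh5 at 0.95 ± 0.20, Pecam1 at 0.66 ± 0.09 (0.00 on its second probe, not called) and Kdr at 0.26 ± 0.08 (0.03 on its second probe, not called), and their summed signal was 9356 to 10504 against 6471 to 7292. Of 5 neuronal markers 1 was higher in the Scriptaid channel and 4 in the Nullscript channel, on the side of the inhibitors. Nefm had -1.33 ± 0.18 and Stmn2 -1.16 ± 0.07 (-0.14 and -0.19 on their second probes), Elavl4 had 1.29 ± 0.14, and the summed signal was 5174 to 5968 against 5155 to 6809. Of 5 red blood cell markers 0 and 3 were called, with Hbb-bh1 at -0.31 ± 0.02, Hbb-y at -0.30 ± 0.08 and Klf1 at -0.13 ± 0.06, and a summed signal of 23360 to 38575 against 27235 to 43775. Of 5 macrophage markers 2 and 1 were called, C1qa at 0.47 ± 0.02, C1qb at 0.14 ± 0.04 and Csf1r at -0.14 ± 0.06 (0.12 and -0.05 on its further probes, neither called), with a summed signal of 3671 to 5201 against 3515 to 5137.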

How the data were processed

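RNA of explants exposed to either drug was measured on 6 arrays of 2 colours. Agilent Feature Extraction 9.1.3.1 made the deposited scanner files, per the file headers, with the intensity of every spot and of its surroundings in Cy3 and Cy5. A log10 ratio (Cy5 over Cy3) stands beside them, per the file headers, and the authors deposited a value table of log10 ratios for the same spots. Its columns equal the scanner ratios turned to labelled Scriptaid over labelled Nullscript. No genome build is given in the sources used here for the array design.

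In limma 3.58.1 under R 4.3.3, normexp with an offset of 50 corrected the intensities, and loess normalised each array with weight 0 for control spots. Outlier-marked spots were dropped and saturated spots kept. Spots of a probe and then the 2 arrays of a replicate were averaged (n = 3). Probes entered that exceeded background well for either drug on 3 or more arrays, and a gene was represented by its brightest probe. The mean ratio was tested against 0 with lmFit and eBayes, with Benjamini-Hochberg adjustment over 26498 genes, and genes at an adjusted p under 0.05 were called. Levels of single channels were taken after loess and Aquantile normalisation. Replicates 1 and 2 were on one slide and replicate 3 on a second, so values without replicate 3 are those of the first slide. The replicate number was used as a block because the labels give both of its arrays as one biological replicate. Deviations of the 2 arrays correlated at 0.61, 0.15 and -0.03 in replicates 1, 2 and 3. The script was tested on simulated data.

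Each array held 43379 spots other than controls, of which 91.5% to 96.5% were well above background in a channel, and the number of replicates limits the precision. Names came from an accession for 22951 probes, from a current symbol for 6659, from an older symbol for 3109 and from the array file itself for 8455. Promoter sequences come from RefSeq (GRCm38.p6). Named besides the 7 members are up to 3 called genes with the largest absolute ratio in each list, the nearest measured genes on each side of a member, the most similar genes and 6 genes of known response. Ccnh, Mnat1, Ccne1, Ccne2, Cdc25a, Cdk7, Skp1, Cks1b, Sp1, Sp3, Trp53, Nap1l4 and Cd81 were named in addition. The members, lists and rules were chosen with earlier results of these data known. Alternatives covered signals, offset, centring, filters, probes, dye orientation, blocks and left-out replicates.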

Additional observations from a re-analysis of the deposited data

Results flagged for a closer look

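Cdkn1b and Cdkn1c gave ratios that differed between the 2 dye orientations of what the labels give as the same replicate. For Cdkn1b the log2 ratio with Scriptaid in Cy5 was 0.42 above that with Scriptaid in Cy3 (gap 0.4194, limma adjusted p = 0.0296 for the dye term). Its other probes had gaps of -0.31 and -0.12, which were not called (0.391 and 0.322 adjusted over probes). For Cdkn1c the gap was -1.05 (-1.048, limma adjusted p = 0.00115), and its Cy5 signal was saturated on all 6 arrays. Of 26499 genes in the 6-array fit, 1438 (5.43%) had a called dye term.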

How the results depend on the processing

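Cdkn2b, Cdkn1a and Cdkn2d kept their direction and call under all 17 alternatives each, with ratios from -1.68 to -1.40, -1.04 to -0.78 and -0.81 to -0.65. The count of inhibitor genes higher in the Nullscript channel was 4 to 6. That in the Scriptaid channel rose from 0 to 1 with median centring, on the Cy3 arrays alone, on the Cy5 arrays alone, with the replicate block and with the slide as a block, and was 0 to 1 without 1 replicate. Cdkn1b was called at 0.22 with median centring, 0.35 on the arrays with Scriptaid in Cy5 alone, 0.14 with the replicate block and 0.17 with the slide block, reversed to -0.0679 on the arrays with Scriptaid in Cy3 alone, and was 0.0761 to 0.20 without 1 replicate. Cdkn1c reversed to 0.17 on the arrays with Scriptaid in Cy3 alone and to 0.0609 in the Cy3 channel scaled to the array median, and lost its call at -0.23 without the replicate 2 array with Scriptaid in Cy5. The last setting and the readings of Cdkn1c in Cy3 alone were chosen after seeing the data, as were the other probes of Cdkn1b. Cdkn2c lost its call at -0.0725 with median centring, -0.0904 on the Cy5 arrays alone and -0.12 without replicate 3. It was -0.16 to -0.12 without 1 replicate. Cdkn2a lost its call at -0.0387 on the Cy5 arrays alone and -0.12 without replicate 3, and was -0.16 to -0.12 without 1 replicate. With the filter on all 6 arrays Cdkn2a did not pass. The cause of these changes was not tested.

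Over all genes, 4331 to 5695 were higher in the Scriptaid channel and 4002 to 5698 in the Nullscript channel without 1 replicate, the lowest without replicate 3. The replicate block gave 6302 and 6549, and median centring 6255 and 8022 (23.6% and 30.3% of the genes tested). The list of the E, A and B cyclins also holds Ccnh and Mnat1. In it, median centring and the slide block left 1 gene higher in the Nullscript channel (1 to 2 without 1 replicate). For the Rb family and E2F factors it was 2 with median centring and with the mean over all probes, 1 on the Cy5 arrays alone and 1 to 4 without 1 replicate. Regulators higher in the Scriptaid channel numbered 7 to 9 without 1 replicate, and class I HDAC genes 1 on the Cy3 arrays alone. In the domain of Cdkn1c, 2 genes were higher in the Scriptaid channel on the Cy3 arrays alone. In the Nullscript channel there were 3 with processed signals, 2 with the value table, 0 with saturated spots left out, 2 with the mean over all probes, 2 on the Cy3 arrays alone, 3 with the replicate block and 1 to 2 without 1 replicate. Signal over background limits Cdkn2a, and saturation limits Cdkn1c.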
